A study of Homo sapiens with 10 samples.

Results

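The data concern 10 genes that encode brakes on mitogen-activated protein (MAP) kinase signalling, namely the dual-specificity phosphatase genes DUSP1, DUSP4, DUSP5, DUSP6 and DUSP10, the sprouty genes SPRY1, SPRY2 and SPRY4, and the SPRED genes SPRED1 and SPRED2. They were chosen by name, with earlier results of these data known, among 19775 genes with a probe set of a single symbol. Every probe set annotated to exactly 1 of them was taken, which gave 22 probe sets. Expression was measured on 10 Affymetrix arrays of total RNA from IMR90, normal human lung fibroblasts. Proliferating cells at 28 population doublings filled 5 arrays, and senescent cells at 90 population doublings filled the other 5. Senescence was reached by serial passage, the arrested cells were kept in culture for a further 2 weeks, and both groups grew in DMEM with 10% fetal bovine serum at 3% oxygen. Neither group carried a knockdown or drug according to the labels, and the number of doublings, the holding time and the growth state differ together, so they cannot be told apart.

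MAP kinase cascades carry signals from growth factor receptors and from stress to the nucleus. Receptors switch on RAS, RAS activates RAF, MEK and ERK in turn, and parallel cascades end in p38 and JNK. ERK activity induces genes that shut it down again: MAP kinase phosphatases remove the activating phosphates from ERK, p38 or JNK, and sprouty and SPRED proteins act further upstream, between the receptor and RAF. In fibroblasts these genes are commonly read as a record of recent pathway activity, although messenger RNA shows neither phosphatase nor kinase activity.

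Upstream sequences of DUSP1, DUSP6, SPRY2 and SPRY4, which all rose, are shown so that they can be compared. Of the 10 members, 8 had an entry in the RefSeq promoter table (build GRCh38.p14), and the 250 bases before the annotated start of these 4 follow (for SPRY2 the first of its 3 starts), 5′ to 3′ on the gene's strand. Capitals mark matches on either strand. The strings sought were CCGGAA for ETS factors, the cyclic AMP response element (CRE) TGACGTCA, its shorter core TGACG, the AP-1 site TGANTCA and the CArG box bound by SRF. Each full CRE contains that core on both strands, so those matches overlap.

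DUSP1, chr5:172771196-172771445, minus strand: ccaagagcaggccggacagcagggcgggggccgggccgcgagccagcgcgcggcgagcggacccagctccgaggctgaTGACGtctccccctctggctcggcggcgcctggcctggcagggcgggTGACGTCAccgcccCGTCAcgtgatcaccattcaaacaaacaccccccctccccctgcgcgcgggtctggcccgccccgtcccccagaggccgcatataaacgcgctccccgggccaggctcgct

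DUSP6, chr12:89352502-89352751, minus strand: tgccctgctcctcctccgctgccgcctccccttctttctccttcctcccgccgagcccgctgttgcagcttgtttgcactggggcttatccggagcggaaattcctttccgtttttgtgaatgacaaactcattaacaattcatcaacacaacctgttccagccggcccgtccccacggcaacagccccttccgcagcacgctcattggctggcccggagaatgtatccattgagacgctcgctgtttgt

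SPRY2, chr13:80341127-80341376, minus strand: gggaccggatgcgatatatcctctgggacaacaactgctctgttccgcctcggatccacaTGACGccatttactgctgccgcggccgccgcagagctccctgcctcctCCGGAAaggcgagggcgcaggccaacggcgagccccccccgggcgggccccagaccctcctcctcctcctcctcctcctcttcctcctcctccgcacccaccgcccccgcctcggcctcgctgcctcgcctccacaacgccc

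SPRY4, chr5:142324248-142324497, minus strand: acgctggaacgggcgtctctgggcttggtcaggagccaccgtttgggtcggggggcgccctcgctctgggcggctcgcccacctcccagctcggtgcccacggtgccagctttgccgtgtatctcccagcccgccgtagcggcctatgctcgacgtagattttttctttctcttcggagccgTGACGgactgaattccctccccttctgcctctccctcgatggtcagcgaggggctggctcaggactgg

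The DUSP1 sequence held a full CRE 125 bases before the start, an element found in 1.65% of the table's 35116 promoters, and 2 further cores. SPRY4 held a core 68 bases before the start and SPRY2 held one at 190 bases, against 21.2% of all promoters with at least 1. Of the 13 entries of members, only these of DUSP1, SPRY4 and SPRY2 held a core, a share near that of all promoters. SPRY2 also held the ETS string at 142 bases, and the downstream SPRY1 entry held it at 67 bases, against 14.5% of all promoters. No other entry of a member held it, again a share near that of all promoters. The entries of DUSP10, SPRED1 and SPRED2 held neither the TGACG core nor the ETS string. In the DUSP6 window none of the 5 patterns was found, which says only that these letters do not occur there. The shorter string GGAA, which was not sought, does occur in that window. No entry of any member held the AP-1 pattern (6.57% of all promoters) or the CArG box (1.16%). A match is a string of letters and no binding was measured.

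Of the 22 probe sets, 19 lay above the 40th percentile of their array on at least 5 arrays and were tested, and all 10 genes kept at least 1. The other 3, a probe set each of DUSP1, SPRY1 and SPRED2, lay between 1.66 and 2.42 on every array, below that percentile (2.66 to 2.74), and gave no reading. Limma was fitted to all 32732 probe sets that passed, and adjusted p-values are Benjamini-Hochberg values over all of them with a threshold of 0.05. Of the 19 member probe sets, 16 were higher and 1 was lower in senescent cells, against 26.9% and 26.2% of all tested probe sets, and 2 did not pass. The groups did not overlap for 14 of the 19, against 44.5% of all tested probe sets. With 1 probe set a gene, 9 members rose and 1 fell, where 31.0% of 12909 tested genes rose and 30.3% fell, and DUSP5 was the gene that fell on the deposited scaling, a direction that turned with arrays centred on the plain housekeeping median. The median difference over the 10 genes was 0.68 on the log2 scale and that over all tested genes was 0.04. At least 2-fold rises were seen for DUSP4, DUSP6 and SPRY4, 3 of 10 members against 10.0% of all tested genes. Because the members were chosen with earlier results of these data known, these shares describe them and are no test of the group.

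**Figure D1:**
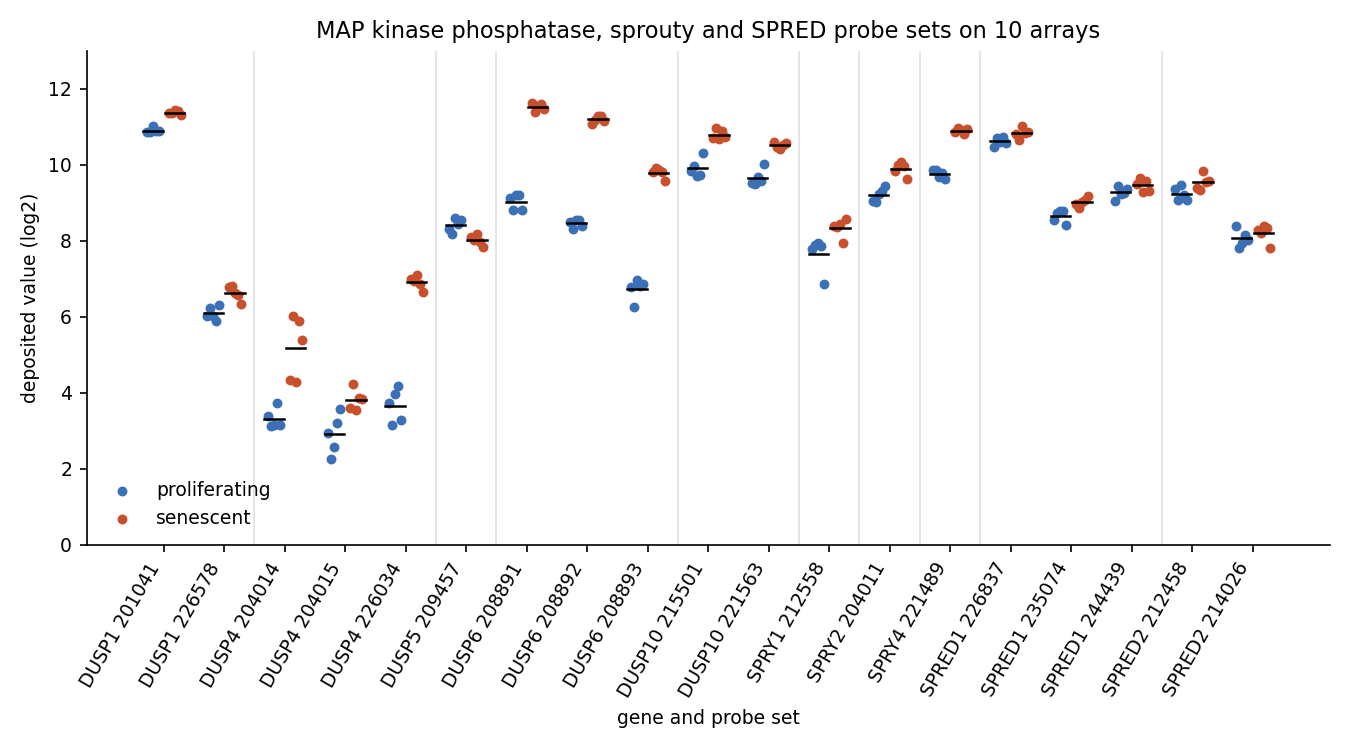
Deposited log2 values of the 19 tested member probe sets, labelled by gene and by probe set number without its suffix, on 5 proliferating (blue) and 5 senescent (red) arrays, with a black bar at each group mean. The groups lie farthest apart at the DUSP6 probe sets and at DUSP4 226034, DUSP5, whose direction turns with plain housekeeping centring, is the only gene here with the senescent points below the proliferating ones, and the SPRED1 and SPRED2 points lie close together.

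Array medians lay between 3.05 and 3.12, all 7 listed proliferation markers were lower in senescent cells (median -3.86), and 13 of 13 fibroblast markers were above the 60th percentile (4.64 to 4.77) on all arrays. All 5 measured leukocyte markers and 5 of 6 endothelial markers stayed below it on all arrays, whereas 5 of 9 epithelial markers were above it on some array. The log2 of the summed epithelial signal was 10.25 to 10.50 on proliferating and 9.90 to 10.06 on senescent arrays, and the same sums for smooth muscle markers were 12.48 to 12.99 and 13.25 to 13.44. The endothelial sums were 9.64 to 10.05 and 10.46 to 10.68, carried by TEK, which was 9.90 ± 0.18 and 10.52 ± 0.12 (SD, n = 5 each). The part of these markers in the members' differences was not tested. Control probe sets at both ends of the ACTB transcript, a sign of RNA integrity, also differed: the 3′ minus 5′ value averaged 2.07 on proliferating arrays (SD 0.14) and 2.32 on senescent arrays (SD 0.10, n = 5 each), with an exact two-sided permutation p of 0.00794. The 3′ minus middle values of ACTB and GAPDH also differed, by 0.18 and 0.23 (exact permutation p = 0.00794 each). The GAPDH 3′ minus 5′ value differed by 0.15, which was not past 0.05 (exact permutation p = 0.135). With the ACTB 3′ minus 5′ value as a covariate, 13 of the 19 member probe sets were higher and 1 lower. Of all tested probe sets 20.0% were then higher and 20.6% lower. The calls of DUSP4 204015_s_at, SPRY1, SPRED1 226837_at and SPRED2 212458_at were lost, and SPRED1 244439_at passed (0.42, limma's adjusted p = 0.020). Because this covariate moved with the group, RNA integrity and lost precision cannot be told apart in a lost call. In bulk RNA a change in the number of expressing cells and a change in RNA per cell cannot be told apart. Whether the 5 arrays of each group derive from separate cultures is not stated in the labels. The p-values accordingly describe array-to-array spread, and this may be technical.

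DUSP6 encodes a cytoplasmic phosphatase that is selective for ERK and is itself induced by ERK activity. On probe set 208891_at the proliferating arrays read 9.13, 8.81, 9.20, 9.20 and 8.80, and the senescent arrays read 11.63, 11.39, 11.55, 11.59 and 11.47. Every senescent array was above every proliferating array, with a gap of over 2 log2 units between the closest values. DUSP6 thus rose 5.64-fold, by 2.50 on the log2 scale (SE 0.10, limma's adjusted p = 1.4e-08, exact permutation p = 0.00794). The other two probe sets rose as well, 208892_s_at from 8.45 ± 0.11 to 11.19 ± 0.09 and 208893_s_at from 6.73 ± 0.28 to 9.79 ± 0.13 (SD, n = 5 each). Their differences of 2.74 and 3.06 were larger than that of 208891_at, and all 3 pairs differed in size when the per-array differences between probe sets were permuted (exact permutation p of 0.00794 to 0.0238, adjusted 0.0317 to 0.0476 over 12 pairs of probe sets within members). Only 1.91% of tested genes had a more positive difference than the 2.50 of DUSP6. The direction was the same and past the threshold in all alternatives, with 2.27 to 3.56 for 208891_at.

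DUSP4, whose product is a nuclear phosphatase of ERK, JNK and p38, was low or near background in proliferating cells. Probe set 226034_at read 3.74, 3.16, 3.96, 4.18 and 3.28 on proliferating and 7.00, 6.95, 7.11, 6.86 and 6.64 on senescent arrays. No proliferating array reached its 60th percentile and every senescent array exceeded it. The difference was 3.25 (SE 0.19, limma's adjusted p = 2.7e-07), which is 9.49-fold, and a fold of this kind sets a clear signal against one near background and depends on the background correction. Only 1.05% of tested genes had a more positive difference. The remaining DUSP4 probe sets moved the same way by less: 204014_at rose by 1.87 (SE 0.35, limma's adjusted p = 0.0012) and 204015_s_at by 0.91 (SE 0.24, limma's adjusted p = 0.0087). On 204014_at the senescent arrays spread widely, at 4.34, 6.03, 4.29, 5.88 and 5.39, although none overlapped the proliferating range of 3.13 to 3.74. On 204015_s_at the groups overlapped, the proliferating array of replicate 5 (3.58) lying above the senescent array of replicate 3 (3.55), and no array of either group reached the 60th percentile. That probe set lost its call with the ACTB covariate (0.89, adjusted p = 0.098). All 3 pairs of DUSP4 probe sets differed in the size of the rise (exact permutation, adjusted p of 0.0317 to 0.0476), so the size depends on the probe set and only the direction is shared.

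DUSP5, which encodes a nuclear phosphatase specific for ERK, went the opposite way. Its single probe set read 8.30, 8.17, 8.60, 8.44 and 8.54 in proliferating and 8.09, 8.01, 8.17, 7.96 and 7.83 in senescent cells. The highest senescent array and the lowest proliferating array nearly met, both at 8.17 when rounded. DUSP5 fell by 0.40 on the log2 scale (SE 0.09, limma's adjusted p = 0.0044, exact permutation p = 0.00794), but the difference was -0.12 and not past the threshold with arrays centred on housekeeping deviations (adjusted p = 0.23) and 0.66 with arrays centred on the plain housekeeping median. Of all tested genes, 23.9% had a more negative difference. The direction of DUSP5 is therefore given relative to the deposited scaling only. The ACTB covariate left it lower, at -0.63.

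DUSP1 and DUSP10 act mainly on the stress-activated kinases p38 and JNK, and DUSP1 is a classical immediate early gene. DUSP1 probe set 201041_s_at read 10.85, 10.86, 11.01, 10.90 and 10.88 in proliferating and 11.36, 11.37, 11.43, 11.41 and 11.30 in senescent cells. The arrays of each group lay within a narrow band and the bands did not overlap. DUSP1 rose by 0.47 (SE 0.04, limma's adjusted p = 8.3e-06), a 1.39-fold change, and 226578_s_at rose by 0.53 (SE 0.11, limma's adjusted p = 0.0019). DUSP10 probe set 215501_s_at read 9.84, 9.96, 9.71, 9.72 and 10.31 in proliferating and 10.70, 10.96, 10.67, 10.90 and 10.73 in senescent cells. Proliferating replicate 5 was the highest of its group on this probe set and on 221563_at, where it read 10.01 against 9.50 to 9.67 on the others, and on both it stayed below all senescent arrays. DUSP10 rose by 0.88 and 0.85 on these probe sets (SE 0.12 and 0.09, limma's adjusted p = 1.0e-04 and 2.7e-05), about 1.85-fold and 1.81-fold. The 2 probe sets of DUSP1 and the 2 of DUSP10 differed in their change by -0.06 and 0.03, which was not past the threshold (exact permutation p = 0.556 and 0.754).

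**Figure D2:**
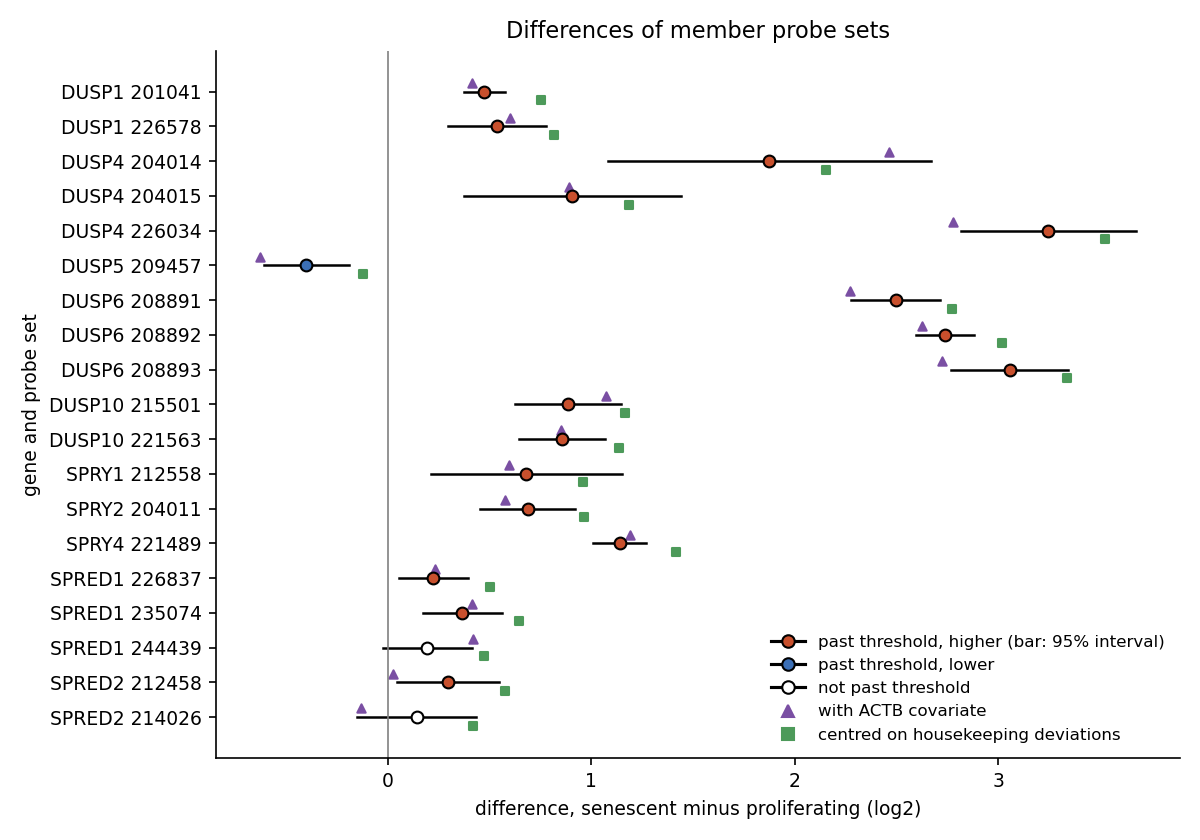
Differences of senescent minus proliferating means on the log2 scale (circles, red past the threshold and higher, blue lower, white not past; bars, limma's 95% intervals), for the 19 tested member probe sets, with the value under an ACTB covariate (triangles) and with arrays centred on housekeeping deviations (squares). DUSP4 and DUSP6 lie between 0.91 and 3.25, DUSP5 is the only negative circle at -0.40 (positive with plain housekeeping centring, not plotted), and the intervals of SPRED1 244439_at and SPRED2 214026_s_at cross 0.

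Sprouty proteins dampen signalling from receptor tyrosine kinases to RAS and RAF. SPRY4 read 9.85, 9.87, 9.68, 9.78 and 9.63 on proliferating and 10.85, 10.98, 10.92, 10.82 and 10.93 on senescent arrays. The senescent arrays all lay nearly 1 log2 unit or more above the proliferating ones. SPRY4 rose 2.20-fold, by 1.14 (SE 0.06, limma's adjusted p = 9.8e-08). SPRY2 read 9.05, 9.02, 9.23, 9.31 and 9.44 against 9.83, 9.99, 10.08, 9.97 and 9.63, again without overlap, and rose by 0.69 (SE 0.10, limma's adjusted p = 0.00027). SPRY1 was read by 1 usable probe set, at 7.77, 7.88, 7.93, 7.86 and 6.85 in proliferating and 8.38, 8.36, 8.45, 7.95 and 8.56 in senescent cells. Proliferating replicate 5 stood apart at the low end, and senescent replicate 4 nearly reached the highest proliferating array. SPRY1 rose by 0.68 (SE 0.21, limma's adjusted p = 0.019), and without proliferating replicate 5 the difference was 0.48 and still past the threshold. The SPRY1 call was lost with the ACTB covariate, where the difference was 0.60 (adjusted p = 0.20), and without proliferating replicate 2 together with senescent replicate 5 (0.68, adjusted p = 0.051). The range of adjusted p over its alternatives was 5.8e-07 to 0.20.

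SPRED proteins bring neurofibromin to the membrane, where it switches RAS off, and on the deposited scaling their probe sets differed by 0.14 to 0.37. SPRED1 was measured by 3 probe sets. On 226837_at proliferating arrays ranged from 10.46 to 10.74 and senescent ones from 10.65 to 11.02, overlapping, with a difference of 0.22 (SE 0.08, limma's adjusted p = 0.032). On 235074_at the ranges were 8.42 to 8.78 and 8.85 to 9.18 without overlap, and SPRED1 rose by 0.37 (SE 0.09, limma's adjusted p = 0.0050). On 244439_at the difference of 0.19 (95% interval -0.02 to 0.41) did not pass (limma's adjusted p = 0.12). These 3 probe sets did not differ from each other past the threshold (exact permutation, adjusted p of 0.177 to 0.857). SPRED2 probe set 212458_at ranged from 9.06 to 9.47 and from 9.33 to 9.83, with a difference of 0.29 (SE 0.11) that barely passed (limma's adjusted p = 0.049). SPRED2 probe set 214026_s_at differed by 0.14 (95% interval -0.15 to 0.43, limma's adjusted p = 0.38). The call of SPRED1 226837_at was lost when proliferating replicate 1, 3 or 5 or senescent replicate 1, 3, 4 or 5 was left out, with differences of 0.18 to 0.23 and adjusted p of 0.052 to 0.074. That of SPRED2 212458_at was lost without proliferating replicate 1, 2, 4 or 5 or senescent replicate 3, 4 or 5, with differences of 0.22 to 0.33 and adjusted p of 0.051 to 0.11. With the ACTB covariate the SPRED2 difference on 212458_at was 0.02 (adjusted p = 0.90). Among SPRED probe sets only 235074_at of SPRED1 kept its call in all alternatives run on it (adjusted p of 2.0e-07 to 0.041).

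**Figure D3:**
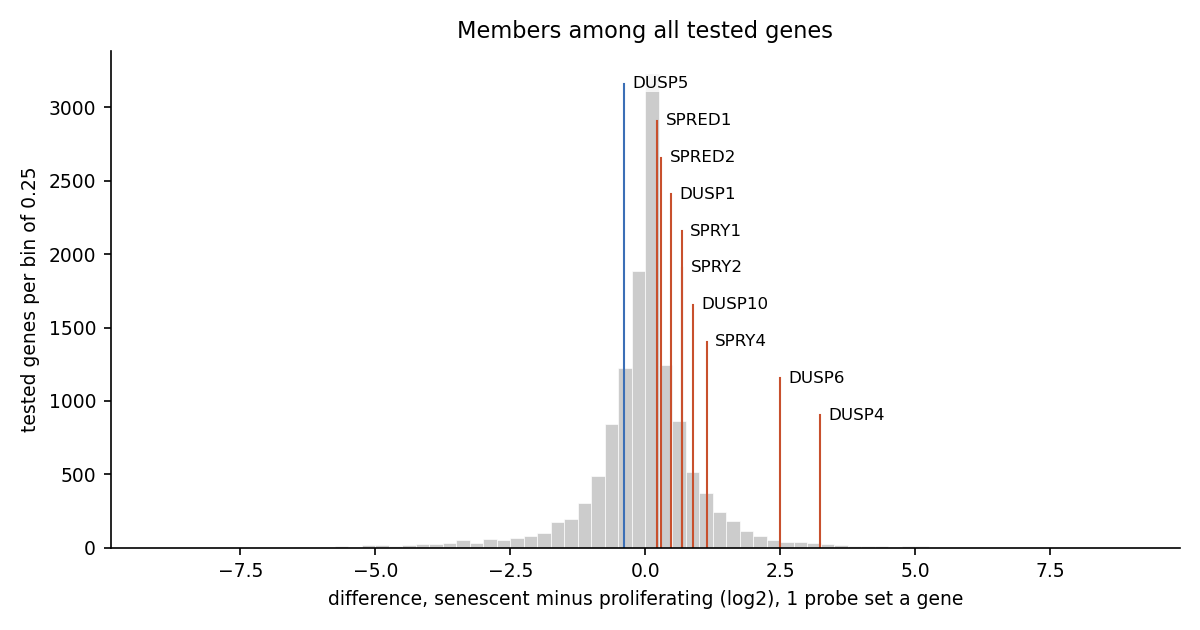
Histogram of the senescent minus proliferating difference (log2) of 12909 tested genes in bins of 0.25, with a line at the value of each member's representative probe set; the heights of the lines only separate the names. DUSP4 (3.25) and DUSP6 (2.50) lie in the far right of the distribution, SPRY4 (1.14) and DUSP10 (0.88) on its right shoulder, and SPRED1, SPRED2 and DUSP5 within its centre.

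Small differences depend on how arrays are scaled. Centring each array on the deviations of 13 housekeeping genes moved the median difference of all genes by 0.28, and the share of calls that were higher went from 50.6% to 75.3%. Plain centring on the median level of that list moved it by 1.06 and the share to 92.6%, because the median fell on GUSB on all 10 arrays, so it followed that gene alone. On the deposited scaling 7 of these 13 housekeeping genes were lower and 0 were higher. Whether the genes or the scaling moved was not tested. Both centrings add their shift to every difference, so the order of the members' differences does not change. The tested probe sets of SPRED1, SPRED2 and DUSP5 had differences of 0.14 to 0.40 in size, close to the 0.28 shift, and those of the other members were between 0.47 and 3.25.

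Other MAP kinase phosphatases and sprouty relatives were mostly near background. Of the 5 other phosphatases listed, DUSP2, DUSP8 and DUSP9 lay between 1.76 and 2.42 on all arrays on their brightest probe set. DUSP16, whose product acts on JNK, was lower by 0.26 (SE 0.09, limma's adjusted p over genes 0.022), from 7.02 ± 0.17 to 6.76 ± 0.10 (SD, n = 5 each), but this call depended on the arrays and scaling used. With housekeeping deviations, with a trended robust fit, and without senescent replicate 2 or 4, 0 phosphatases of this list were lower, and with plain housekeeping centring 0 were lower and 2 higher. With the 60th percentile filter, with array weights, and without proliferating replicate 2 or 3 or senescent replicate 5, 2 were lower. DUSP7, an ERK phosphatase, differed by -0.19 (adjusted p = 0.052). SPRY3 and SPRED3 lay between 1.62 and 2.25 on all arrays. Of both lists, DUSP7 and DUSP16 alone passed the filter on low values.

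The genes above and beside the members are given by list, against 31.0% of all tested genes higher and 30.3% lower. The adaptor and exchange factor list had 6 genes higher and 1 lower of 9 tested (median 0.17). RASGRP3, a RAS exchange factor, rose by 3.08 from a level near background (2.86 ± 0.03 to 5.94 ± 0.40), SHC1 and GRB2, which link receptors to SOS, rose by 0.80 and 0.56, and RASGRP1 fell by 1.06 at low signal, with 1 of 5 proliferating and 0 of 5 senescent arrays above the 60th percentile. With a filter at that percentile 0 genes of this list were lower, and with array weights 3 were. The RAS to ERK list had 4 higher and 3 lower of 12 tested (median 0.03), or 7 higher and 2 lower with housekeeping deviations (median 0.31), with the RAF family kinase gene ARAF (1.06) and the ERK-activated kinase genes MKNK1 (0.87) and MKNK2 (0.76) higher and HRAS (-0.80) lower. Without proliferating replicate 5, 5 genes of that list were lower. The p38 and JNK list had 3 higher and 5 lower of 14 tested (median -0.24), but 5 higher and 3 lower with housekeeping deviations (median 0.04). MAPK13, a p38 kinase gene, fell by 2.60, its activator MAP2K6 by 2.01 to a level near background, and MAP3K4 by 0.81, and the JNK gene MAPK10 rose by 0.86 with low signal in both groups. Over all tested genes the median was 0.04. The signs of the RASGRP1, HRAS and MAP3K4 differences hold on the deposited scaling and with housekeeping deviations, and plain housekeeping centring adds 1.06 to each.

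Other inhibitors of receptors and RAS did not share the members' direction as a list, with 4 higher and 7 lower of 13 tested (median -0.26, or 0.02 with housekeeping deviations). IL17RD, a membrane inhibitor of fibroblast growth factor signalling, fell by 1.88, and the receptor inhibitors LRIG3 and LRIG1 fell by 1.73 and 1.64. LZTR1, an adaptor that directs RAS proteins to degradation, rose by 1.27. Limma's adjusted p over genes was at most 0.0011 for these 4 genes.

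Transcripts known to respond to ERK split evenly on the deposited scaling, with 6 higher and 6 lower of 13 tested. The median was -0.04, or 0.24 with housekeeping deviations and 0.19 with a filter at the 60th percentile. Without probe sets whose names end in _s_at or _x_at, 3 were lower and the median was 0.52. With the mean of each gene's probe sets the median was -0.18, so the split depends on the probe sets used. CCND1, the cyclin D1 gene, rose by 1.24, from 12.37 ± 0.16 to 13.61 ± 0.11 (SD, n = 5 each). The immediate early transcription factor gene EGR1 read 12.96 to 13.29 in proliferating and 11.27 to 11.64 in senescent cells and fell by 1.58. The immediate early gene IER2 fell by 1.49, and the cytokine gene LIF by 1.62 to a level near background, with 0 of 5 senescent arrays above the 60th percentile. ETV5, an ETS factor gene often induced beside DUSP6 and SPRY4, was named after its values were seen. ETV5 read 10.54, 10.44, 10.51, 10.50 and 10.43 against 11.41, 11.32, 11.30, 11.34 and 11.36, a rise of 0.86 (SE 0.04, limma's adjusted p = 4.1e-08), and its other 4 probe sets rose by 0.63 to 1.09. The DUSP6, SPRY4 and ETV5 transcripts were therefore higher on the same arrays on which EGR1 and IER2 were lower. ETV5 was picked from the ERK-responsive list, where MYC (-1.11) and HBEGF (0.87) had differences larger in size. Among ETS and SRF factors 1 was higher and 4 were lower of 8 tested (median -0.25), with ETS1 at -0.86, SRF at -0.59, ELK3 at -0.37 and ETS2 at 0.57. With housekeeping deviations that list had 2 higher and 2 lower (median 0.03).

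**Figure D4:**
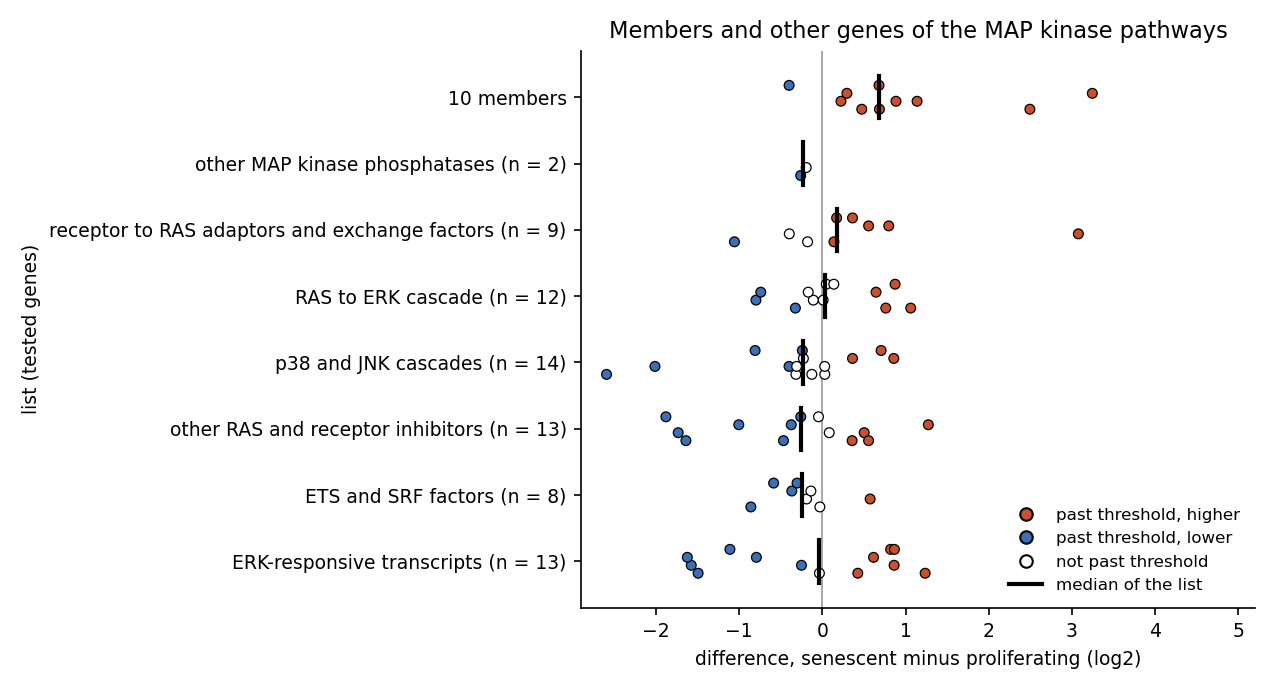
Senescent minus proliferating differences (log2) of the 10 members and of the tested genes of the pathway lists, 1 probe set a gene, coloured by limma's call over 12909 genes, with a bar at each list's median. The members' median is 0.68, and the medians of the other lists lie between -0.26 and 0.17, and 0.28 higher with housekeeping deviations.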

How the data were processed

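Per the labels' protocols, Trizol-purified total RNA was biotin-labelled for Affymetrix arrays by the maker's standard procedure. The deposited table gives log2 values for 54675 probe sets on each array. Partek and GCRMA are named in the submitters' processing notes without role or version. Their settings are not given in the labels, and base 2 was inferred from how far the values reach. Detection calls, scan dates and scanner files were not used here. The number of arrays limits the precision.

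Gene names come from the annotation of the platform, brought up to date by gene identifier against RefSeq GRCh38.p14 (41037 of 41091 probe sets with 1 symbol). Another 1801 had several symbols and 11721 none. Members were identified by the symbol in the annotation. Control probe sets (62) were left out. A probe set was tested across all features if it exceeded the 40th percentile of the array on 5 arrays or more. Differences were tested with limma 3.58.1 (lmFit, then eBayes; R 4.3.3), two-sided, with Benjamini-Hochberg adjustment over 32732 probe sets, or over 12909 genes with the brightest tested probe set of each. Single values had an exact permutation test over 252 assignments, whose smallest p is 0.00794. Named genes were all members and up to 4 called genes of each pathway list by size. ETV5, MYC and HBEGF, which lie beyond the 4 of their list, and the genes of the closing section were named after their values were seen. The members and lists were chosen with earlier results of these data known. Alternatives were other filters, scalings, variance models, array weights, a replicate block, an ACTB covariate and leaving out arrays. Centring on housekeeping deviations, the array median of each gene's departure from its mean, was chosen after seeing the data. The fit was tested on simulated data. Figures used Python 3.11.15 with matplotlib 3.10.9, and tables used numpy 2.4.6, pandas 2.3.3 and R's data.table (1.17.8).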

Additional observations from a re-analysis of the deposited data

Results flagged for a closer look

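Groups of 5 arrays were examined for members, genes named by size from the pathway lists, checks of growth state and control differences. In 8 of 102 such groups, 1 array lay apart from the others by over 0.71 of the group's range. Chance flags about 1 in 20 such groups. Among the members these were SPRY1 212558_at, where proliferating replicate 5 read 6.85 and the nearest array 7.77, and DUSP6 208893_s_at, where proliferating replicate 2 read 6.25 and the nearest array 6.77. Proliferating replicate 5 was also apart for CCND1, at 12.10 against 12.40. Senescent replicate 5 was apart for SHC1 (12.58 against 12.73) and LRIG1 (10.12 against 10.37), and senescent replicate 2 for ARAF (7.41 against 7.79). The GAPDH 3′ minus 5′ control difference stood apart on senescent replicate 3 (0.284 against 0.105), and the GAPDH 3′ minus middle difference on proliferating replicate 2 (1.01 against 1.26).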

How the results depend on the processing

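Of 397 values of member probe sets under the alternatives, 364 kept their direction and side of the threshold. DUSP1, DUSP6, DUSP10, SPRY2 and SPRY4 kept theirs on every tested probe set in all alternatives run. DUSP5 became 0.66 with plain housekeeping centring, and SPRED2 214026_s_at became -0.13 with the ACTB covariate. With plain housekeeping centring 0 members were lower, and calls over all features were 28343 higher and 1746 lower of probe sets and 11094 and 882 of genes. With housekeeping deviations 0 members were lower, and the calls were 19210 and 5452 of probe sets and 7666 and 2520 of genes. The first centring added 1.06 to every difference, its median being GUSB on all arrays, and the second added 0.28. Whether the genes or the scaling moved was not tested. Leaving out arrays gave 13 to 16 member probe sets higher and 1 lower, and 7 to 9 genes higher. Same-numbered deviations correlated by -0.06 to 0.09, and 2 of 5 numbers correlated best with their own. Correlations this small from 5 numbers cannot settle whether replicate numbers pair the arrays. With the replicate block 2 of the other phosphatases were lower, 15 member probe sets were higher and 1 lower, and SPRED1 226837_at was not past the threshold (adjusted p = 0.075). GCRMA values near background limit what DUSP4's fold can show.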

Other observations

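The remaining genes with DUSP symbols, mostly atypical phosphatases that lack the MAP kinase binding domain, were counted after the data were seen. Of 13 on the array 9 were tested, and 4 were higher and 1 lower (median 0.10). DUSP3 rose from 10.91 ± 0.13 to 11.87 ± 0.16, DUSP22 from 7.35 ± 0.14 to 8.30 ± 0.09 and DUSP28 from 5.08 ± 0.15 to 5.92 ± 0.34 (SD, n = 5 each). DUSP11 was higher by 0.34 and DUSP14 lower by 0.28 (limma's adjusted p over genes at most 0.0014 for these 5 genes).

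SPRY4-IT1, a noncoding transcript annotated within the SPRY4 gene, rose on both of its probe sets, also chosen after their values were seen. The SPRY4-IT1 probe set 1566967_at read 7.37, 7.63, 6.71, 7.07 and 6.82 in proliferating and 8.08, 8.49, 8.13, 8.44 and 8.54 in senescent cells. Its differences were 1.22 (SE 0.18) and 1.17 (SE 0.17), beside 1.14 for SPRY4.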
